A study of Mus musculus with 5 samples.

Results

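The genes described here are 37 mouse genes of homologous recombination and other DNA repair pathways, taken from a list of gene names whose rule uses no measured value. The list was nevertheless chosen with earlier results of these data known, so its counts are descriptive and no independent check. All 37 were found among the 20018 named genes of the array by matching the RefSeq accession of each probe to a symbol. They fall into 12 genes of homologous recombination, 6 of the Fanconi anaemia pathway, 4 checkpoint kinases, 2 mismatch repair genes, 5 of base excision and strand break repair, 3 of nucleotide excision repair, 4 of end joining, and Polq, which acts in theta-mediated end joining.

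The cells were lines grown from soft tissue sarcomas of mice on a mixed C57/BL6, 129 and ICR background. All of them carry an EWS/ATF1 fusion allele that doxycycline switches on, the control arrays included. Total RNA was hybridised to 5 single-colour Agilent arrays, 1 for each group, namely the control, low doxycycline and high doxycycline at 3 h and the control and high doxycycline at 48 h. The doxycycline concentrations, the treatment of the control cultures and the line each array came from are not stated in the labels, so doxycycline and a difference between lines or cultures cannot be told apart. With 1 array in each group no difference has a replicate check and no p-value is given.

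Homologous recombination repairs DNA breaks by copying an intact sister chromatid, so it serves cells that are replicating or have replicated their DNA. Brca1, Bard1, Palb2 and Brca2 prepare the broken end for strand exchange, and the Fanconi anaemia proteins open DNA crosslinks that block replication forks and hand the break to recombination. End joining seals breaks without a template, while mismatch, base excision and nucleotide excision repair remove mispaired, chemically altered or bulky bases.

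The promoters of the members show what sequence lies upstream of these genes, and were searched for sites of E2F, a factor that controls many replication genes, and for the cAMP response element (CRE) that ATF1 is known to bind. RefSeq promoters (GRCm38.p6) were at hand for 31 of the 37 members, and the 250 bases before the start were searched on both strands. Exo1, Rad54b, Fancd2, Xrcc2, Xpc and Prkdc had no promoter at hand and were not searched. Printed 5′ to 3′ on the gene's strand are 4 of the 5 members with an E2F site, those that differed most between the 48 h arrays. Brca2 and Fancg among them differed by under 2-fold. Capitals mark the E2F site (TTTCCCGC, TTTCGCGC, TTTGCCGC or TTTGGCGC, or its reverse complement) and, in Brca2, also the full CRE.
Bard1, chr1:71102973-71103222, minus strand: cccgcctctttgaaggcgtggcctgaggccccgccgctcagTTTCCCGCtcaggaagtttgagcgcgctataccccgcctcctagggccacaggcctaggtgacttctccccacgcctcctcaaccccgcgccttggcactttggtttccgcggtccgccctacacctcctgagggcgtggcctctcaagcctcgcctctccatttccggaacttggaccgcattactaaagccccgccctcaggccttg
Chek2, chr5:110839733-110839982, plus strand: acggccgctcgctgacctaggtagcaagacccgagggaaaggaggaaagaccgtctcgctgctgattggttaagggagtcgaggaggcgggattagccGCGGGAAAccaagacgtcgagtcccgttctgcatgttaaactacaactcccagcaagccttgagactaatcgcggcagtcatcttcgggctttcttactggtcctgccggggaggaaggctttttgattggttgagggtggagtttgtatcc
Brca2, chr5:150522371-150522620, plus strand: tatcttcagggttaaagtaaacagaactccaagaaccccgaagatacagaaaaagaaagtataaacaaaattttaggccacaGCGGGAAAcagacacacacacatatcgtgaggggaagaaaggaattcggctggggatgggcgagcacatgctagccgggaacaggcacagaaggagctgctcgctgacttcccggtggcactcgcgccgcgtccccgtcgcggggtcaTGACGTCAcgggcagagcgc
Fancg, chr4:43010302-43010551, minus strand: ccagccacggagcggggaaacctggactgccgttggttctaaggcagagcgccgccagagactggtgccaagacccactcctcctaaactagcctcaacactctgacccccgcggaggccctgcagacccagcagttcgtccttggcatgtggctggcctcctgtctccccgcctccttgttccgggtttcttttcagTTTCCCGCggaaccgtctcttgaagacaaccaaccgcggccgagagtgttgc

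An E2F site of these letters was present in 5 of 31 members, the 4 shown and Xrcc6, against 2.16% of all 27025 genes with a promoter of that length, a gene being counted where any of its windows held the site. Among the 13 members with a promoter that were at least 2-fold higher at 48 h, counting those known only as a bound, 2 held it, and among the other 18 members 3 did. The full CRE (TGACGTCA) was found in Brca2 alone of the 31, and in 1.77% of all genes. The CRE core (TGACG), which the full CRE contains, was found in 10 members, 4 of the 13 and 6 of the 18, and in 19.8% of all genes. A CCAAT box was found in 18 members, 9 in each of the same sets of 13 and 18, against 37.5% of genes, and the CHR element (TTTGAA or TTCGAA) in 4 members, 3 of 13 and 1 of 18, against 19.6%. Rad51ap1 and Fanca, described next, held no E2F site of these letters in the window.

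After 48 h of high doxycycline most listed recombination and Fanconi anaemia members were higher than in the 48 h control. Most of the other members differed by less than 2-fold, as did most measured named genes. Of the 37 members, 32 were above background on both 48 h arrays; 11 of these were at least 2-fold higher and 0 were at least 2-fold lower. The share of higher genes was 34.4% among the members and 9.94% among all 13739 named genes measured on both arrays, of which 10.1% were lower. The median difference was 0.53 on the log2 scale for the 32 members and 0.05 for all named genes. The other 5 members were Brca1, Brip1, Fancd2, Fanci and Polq. They were above background at 48 h of high doxycycline and below it in the 48 h control. Their difference is given as a bound, against the lowest signal above background on the control array or the probe's own signal if higher. Such a bound is an estimate, since undetected probes can read above that lowest signal. All 5 bounds were over 2-fold, as were 76.4% of the 398 named genes in that position. With the bounds included the members' median was 0.72, and that of all named genes was 0.02. These 5 members enter only through detection on the array where they are high, so their bounds could not be negative.

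**Figure D1:**
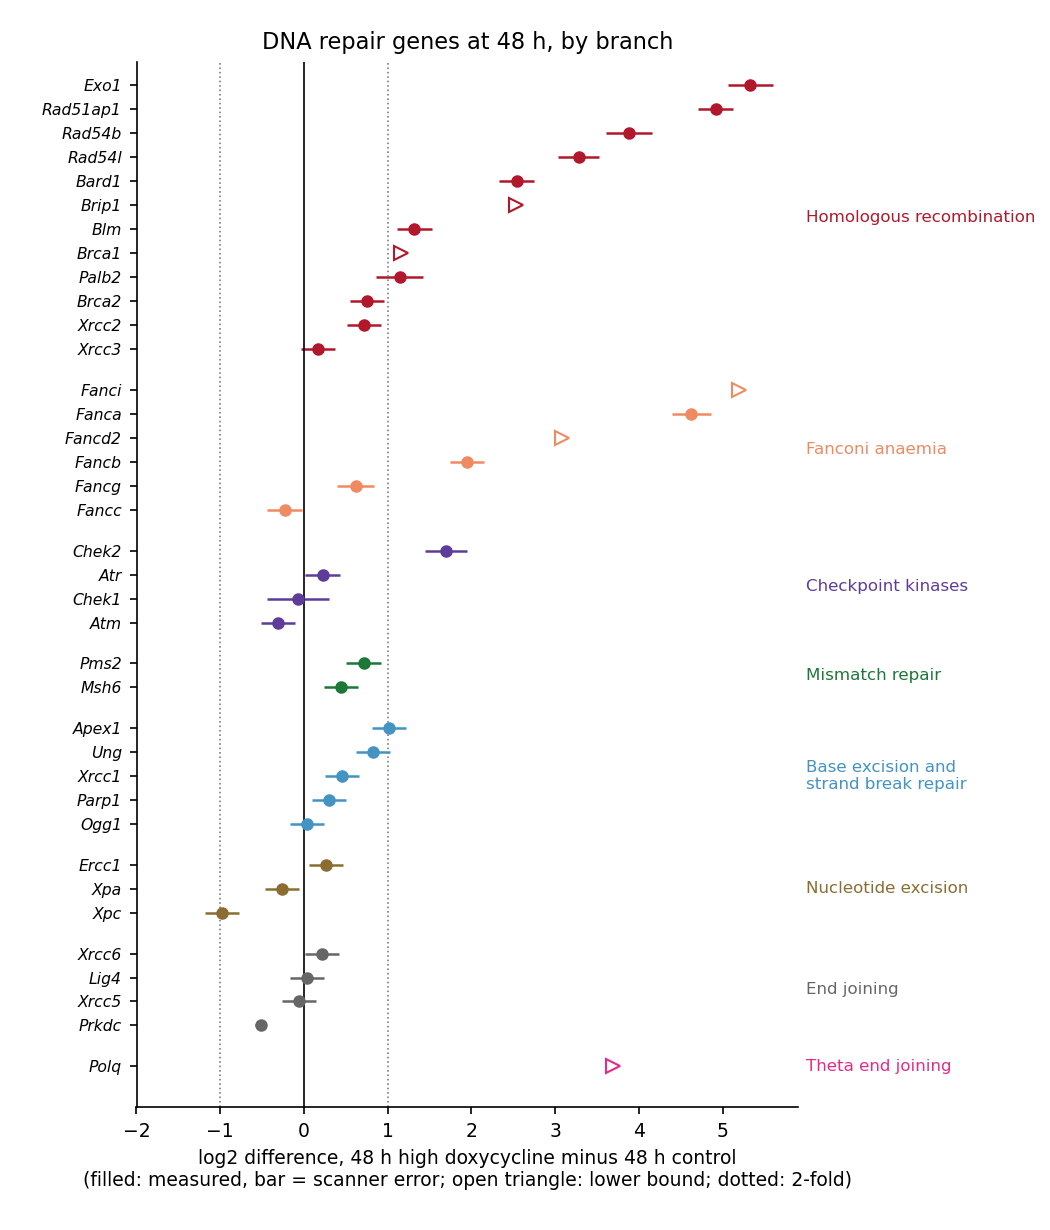
Differences between the 48 h high-doxycycline and control arrays for the 37 members, on the log2 scale, grouped by repair branch and ordered within it. Filled points with bars are the difference and its scanner error, open triangles are bounds as estimated in the text, and dotted lines mark 2-fold. The largest measured differences, Exo1 at 5.33, Rad51ap1 at 4.92 and Fanca at 4.63, lie in the recombination and Fanconi branches.

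By branch, 7 of the 10 measured recombination genes and 2 of the 4 measured Fanconi genes were higher, with medians of 1.93 and 1.28. The 7 include Bard1 by its brightest probe, while its second probe differed by 0.61. In both branches 2 further members were higher as a bound, which puts the medians at 1.92 and 2.51. Such bounds cannot be negative, so these 2 medians are descriptive and add no support. The 18 members outside recombination, the Fanconi pathway and Polq had a median of 0.22, with 2 higher (Chek2 and Apex1) and 0 lower. This share of 11.1% higher was near the 9.94% of all named genes, of which 10.1% were lower. The branch medians of these 18 members were 0.08 for the checkpoint kinases, 0.58 for mismatch repair and 0.45 for base excision. They were -0.26 for nucleotide excision and -0.02 for end joining. When the 3 h control was used in place of the 48 h control these 5 medians became 0.39, 0.59, 0.26, -0.70 and 0.07.

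Other gene lists moved with these differences, and their part in them was not tested. Of 18 proliferation genes, such as Mki67 and the Mcm genes of the replicative helicase, all 15 measured were higher at 48 h of high doxycycline and 2 more were higher as a bound, with a median of 3.27; their summed linear level was 45.3 to 51.8 on the other 4 arrays and 236 there. Of 10 mesenchymal markers, all above background on all arrays, 5 were lower and 0 higher, with a median of -1.04. Of 12 macrophage markers, 11 were above background on that array and 6 to 10 on the others, and their summed linear level was 47.5 there and 7.60 to 9.20 elsewhere. Csf1r made up most of these sums; without it they were 3.33, 2.88, 1.34, 1.69 and 8.06 in the order 3 h control, low and high dose, 48 h control and high dose, so the 48 h control was also below the 3 h control. In bulk RNA, more cells of a kind and more RNA per cell cannot be told apart. Epithelial markers were above background for at most 2 of 5 genes and endothelial markers for at most 3 of 5. Of 10 reference genes 0 reached 2-fold, with a median of 0.36.

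Levels below are log2 signal relative to the 75th percentile of the array, in the order 3 h control, 3 h low, 3 h high, 48 h control and 48 h high doxycycline, and levels of different genes come from different probes and cannot be compared. The scanner error printed with a difference is the software's estimate for a pair of spots and holds no variation between cultures. Rad51ap1, which promotes strand invasion, was at -1.62, -1.75, -1.54, -2.02 and 2.89. The last array stood alone, 4.92 above its control (scanner error 0.21), a 30.2-fold difference. Exo1, the exonuclease that lengthens the single-stranded tail at a break and also serves mismatch repair, was at -4.39, -4.18, -4.20, -4.51 and 0.82, a 40.2-fold difference at 48 h (5.33, scanner error 0.27). The first 4 of these arrays lay within 0.33 of each other.

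Rad54l and Rad54b encode motor proteins that drive strand exchange. Rad54l was at -4.77, -3.98, -4.82, -4.18 and -0.90, which is 9.73-fold higher at 48 h. Rad54b was at -4.72, -4.69, -4.84, -4.65 and -0.76, a 14.8-fold difference. Both were thus high on the 48 h high-doxycycline array only, and a second Rad54b probe was above background there and on no other array. Blm, a helicase that takes part in end resection and in resolving joined chromatids, had the smaller difference of 1.32 (2.49-fold), with levels of -1.69, -1.29, -1.29, -1.499 and -0.18.

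The genes around Brca1 and Brca2 differed less evenly. Bard1, the partner that forms a ubiquitin ligase with Brca1, was at -1.72, -1.85, -1.46, -1.60 and 0.94, a 5.81-fold difference at 48 h (2.54, scanner error 0.21). Its 3 probes did not give the same size. A second probe differed by 0.61, and the third was above background at 48 h of high doxycycline alone, with a bound of 2.44. The probe used was the brightest by its mean over all 5 arrays, the 48 h high-doxycycline array included. On the 3 h arrays the second probe was the brighter, at -1.09, -1.36 and -1.39, so the size for Bard1 depends on that choice. Palb2, which joins Brca1 to Brca2, was at -4.43, -4.44, -4.18, -4.57 and -3.43, a 2.21-fold difference (1.14, scanner error 0.28). Its second probe, at or below background on most arrays, differed by -0.10. Palb2 also came to under 2-fold with the mean of its probes (0.52) and with normexp background correction (0.75). Brca2, which acts at the broken end before strand exchange and whose promoter holds both the E2F site and the full CRE shown above, was at -1.24, -1.33, -1.26, -0.74 and 0.01. It was highest at 48 h of high doxycycline, 0.75 above the 48 h control and 1.25 above the 3 h control, under 2-fold against the first and over it against the second.

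Brca1 was not well above background on 4 arrays and at -4.29 on the 48 h high-doxycycline array, a bound of 2.23-fold over the 48 h control. Against the 3 h control its bound was 1.85-fold, under the 2-fold line. Brip1, the helicase that binds Brca1, was likewise detected on that array only, at -2.92, with a bound of 5.78-fold over the 48 h control. Xrcc3, which also acts in strand exchange, had the smallest difference of the recombination branch, with levels of -1.21, -1.66, -1.81, -1.17 and -1.01 and a difference of 0.16. Xrcc2 differed by 0.72 on the probe used and by 1.63 on its second probe, so it passed 2-fold when the probes were averaged (1.18).

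**Figure D2:**
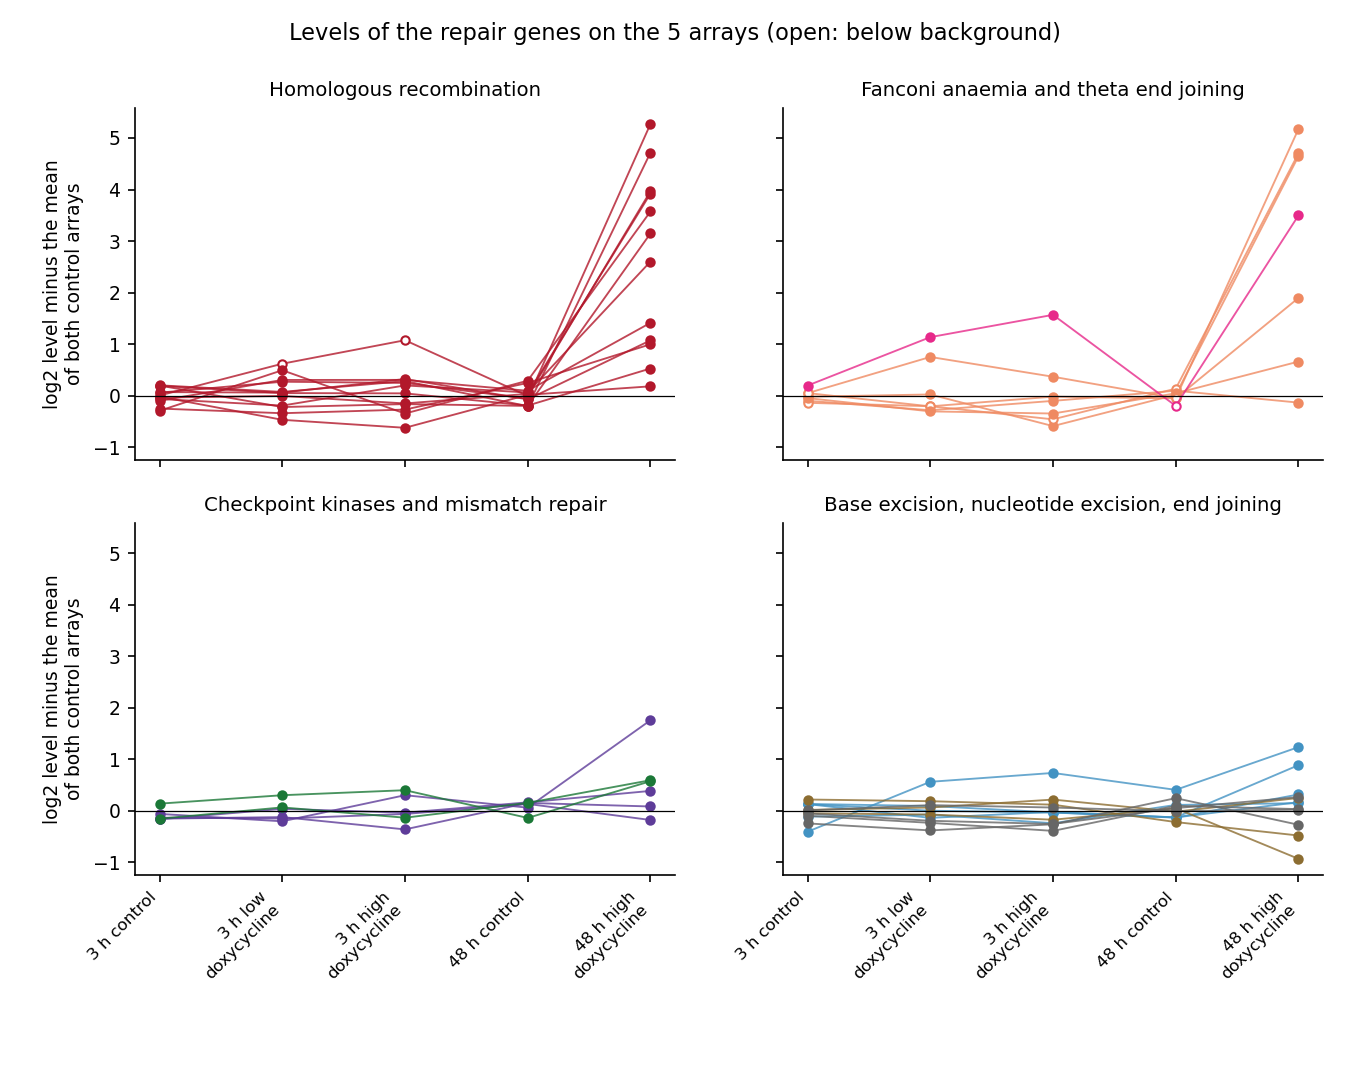
Levels of all 37 members on the 5 arrays, by branch, as the log2 level minus the gene's mean over both control arrays, with open symbols where the gene was below background; lines join the values of 1 gene and are no time course. Recombination and Fanconi genes fan out on the 48 h high-doxycycline array, Polq (pink) is also above its controls at 3 h, and most genes of the lower panels stay near zero.

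The measured Fanconi genes ran from 24.7-fold higher to slightly below their control, also among the subunits of the core complex. Fanca, a core complex subunit, was at -3.89, -3.85, -4.46, -3.85 and 0.78, a 24.7-fold difference at 48 h (4.63, scanner error 0.23). Fancb, another core subunit, was at -2.11, -2.37, -2.18, -2.21 and -0.26, or 3.86-fold higher. Fancg, also of the core and with an E2F site in its promoter, differed by 0.62. Fancc, the fourth core member listed, was at -1.32, -1.4998, -1.32, -1.12 and -1.35, a difference of -0.23 at 48 h (-0.43 on its second probe), and its 48 h high-doxycycline level lay within the range of the other arrays. Fancd2 and Fanci form the clamp that the core complex ubiquitinates. Fancd2 was above background at 48 h of high doxycycline only, at -2.37, with a bound of 8.46-fold over its control. Fanci was above background on both doxycycline arrays at 3 h, at -4.67 and -5.06, and below background on the control arrays. It was at -0.25 at 48 h of high doxycycline, with a bound of 36.7-fold.

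The checkpoint kinases signal breaks and stalled forks. Chek2, the effector kinase downstream of Atm, was the member that differed, at -4.38, -4.52, -4.01, -4.26 and -2.56, a 3.24-fold difference at 48 h (1.70, scanner error 0.25). Chek1, the effector kinase downstream of Atr, had the smallest difference of the branch, with levels of -4.77, -4.74, -4.98, -4.46 and -4.53, a difference of -0.07 on a dim probe with a scanner error of 0.37. The sensor kinases Atm and Atr differed by -0.31 and 0.22. Polq, the polymerase that joins broken ends by short matching sequences, was at -5.01, -4.07 and -3.63 at 3 h. It was below background in the 48 h control and at -1.71 at 48 h of high doxycycline. Its bound there was 12.9-fold, which is the plain difference of 3.69 (scanner error 0.36).

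Genes for the repair of altered bases and bulky lesions lay mostly within 2-fold of their controls. Apex1, the endonuclease that cuts at sites that have lost a base, was at 2.36, 2.24, 2.20, 2.11 and 3.12, a 2.02-fold difference at 48 h (1.01, scanner error 0.20). Ogg1, which removes oxidised guanine, had the smallest difference of this branch, 0.03, with levels of 0.53, 0.57, 0.40, 0.76 and 0.79. Ung, Xrcc1 and Parp1 differed by 0.83, 0.45 and 0.30. The mismatch repair genes Msh6 and Pms2 differed by 0.44 and 0.71; Msh6, the smaller, was at 2.22, 2.44, 2.24, 2.53 and 2.97. Xpc, which recognises bulky lesions, was the member with the lowest difference, at 2.004, 1.98, 1.88, 2.10 and 1.12, or -0.98 at 48 h (scanner error 0.20). Xpa, which verifies the lesion, was at 2.96, 2.93, 2.86, 2.52 and 2.26, and Ercc1, a subunit of the nuclease that cuts beside it, differed by 0.27. Apex1 and Xpc sit next to the 2-fold line: quantile normalization put Apex1 at 0.89 and Xpc just past 2-fold lower, the percentile over probes above background on all arrays gave 0.97 and -1.02, and normexp gave 0.98 and -1.04, so under these settings Apex1 was no longer counted as higher and Xpc was counted as lower.

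In end joining no member reached 2-fold. Lig4, the ligase of the last step, was at 1.12, 1.22, 1.17, 1.10 and 1.13, a difference of 0.03, and its levels spanned 0.12 over the first 4 arrays, the narrowest range of the members above background on all arrays. The Ku subunit genes Xrcc5 and Xrcc6 differed by -0.06 and 0.21, and Prkdc, the kinase that Ku recruits, by -0.52 (scanner error 0.07 over 10 spots).

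Without regard to the pairing of arrays, the 48 h high-doxycycline array stood apart for some members. Most of these were recombination genes, and Fanca, Fancb and Chek2 were also among them. Of the 32 members above background on all 5 arrays, 9 were there at least 2-fold above the highest of the other 4 arrays, against 5.76% of 13470 named genes. Those 9 are the 11 higher members without Palb2 and Apex1. Bard1 is among them through a probe chosen by a mean that includes this array. The level lay above the highest of the other arrays for 24 members, below the lowest for 3 (Atm, Xpa and Xpc) and within their range for 5. Over the other 4 arrays the members' levels spanned a median of 0.39, beside 0.34 for all named genes. With the 3 h control in place of the 48 h control, 13 of 33 measured members were higher (9.44% of all named genes) and 3 more as a bound.

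At 3 h most of the measured members were near their control. Brca1, Brip1 and Fancd2 were below background on the 3 h control and high-dose arrays, so nothing can be said of them there. Of 33 measured members, 2 were higher and 0 lower at the high dose, with a median of -0.02, while 1.85% of all 14004 named genes were higher and 1.45% lower. When arrays were centred on their medians, the all-gene median at the high dose moved from -0.01 to -0.13 and the split of called genes from 259 higher and 203 lower to 190 and 277; the members' count stayed at 2. Those 2 members were Polq and Ung. Polq was 0.94 above the 3 h control at the low dose and 1.37 above it at the high dose (scanner error 0.36), and 0.71 at the high dose with normexp. Ung, the uracil glycosylase of base excision, was at 4.61, 5.58, 5.75, 5.42 and 6.25. Its 3 h control was the low array: the high dose was 1.14 above the 3 h control and 0.33 above the 48 h control. Rad51ap1, Exo1 and Rad54b, the recombination genes that differed by over 10-fold at 48 h, differed at 3 h of the high dose by 0.08, 0.19 and -0.11, and Fanca by -0.57.

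At the low dose 0 of 33 measured members were higher or lower, against 0.789% higher and 0.583% lower among all named genes, and the median was -0.02. The largest differences were those of Ung (0.97), Polq (0.94) and Rad54l (0.79). Rad54l was not higher at the high dose (-0.05). The 3 h comparisons share their control array, so their values are given side by side only. Between the control arrays 0 of 32 measured members differed by 2-fold, with differences from -0.44 to 0.81, the highest for Ung, and 2.50% and 1.36% of all named genes were higher and lower at 48 h.

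**Figure D3:**
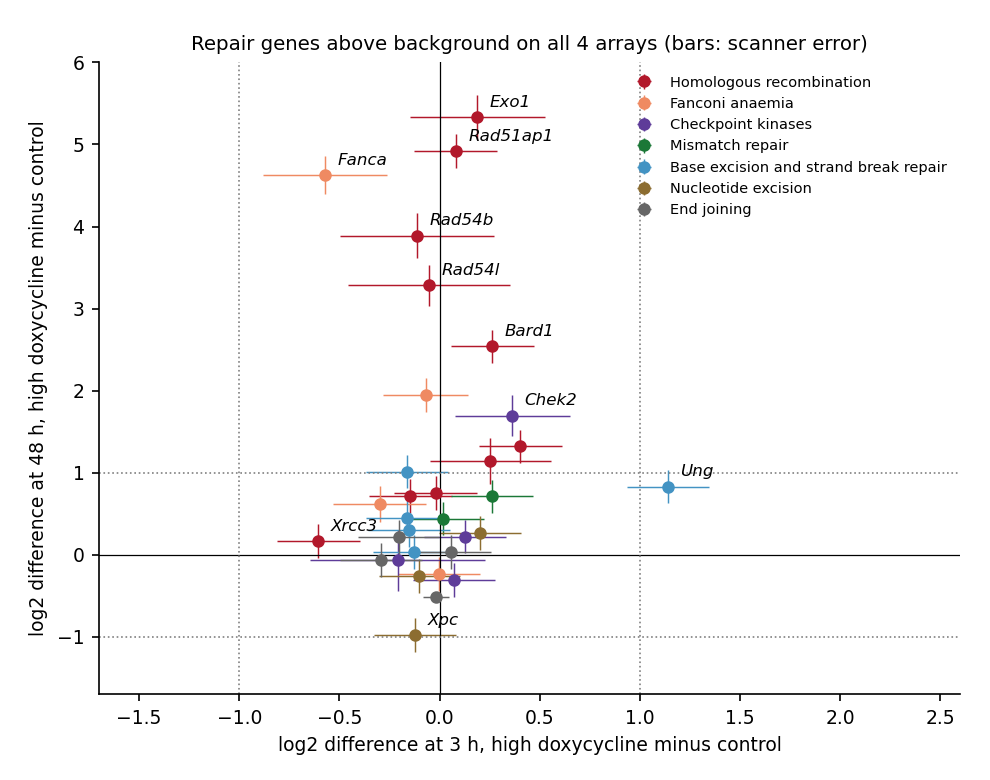
Difference from the control at 48 h (vertical axis) against that at 3 h (horizontal axis) of high doxycycline, on the log2 scale, for the members above background on all 4 arrays, coloured by branch; bars are scanner errors and dotted lines mark 2-fold. The recombination and Fanconi genes spread upwards, to 5.33 for Exo1, while at 3 h the points lie between -0.60 for Xrcc3 and 1.14 for Ung.

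A wider list of 110 repair genes outside the members, of which 109 were found on the array, also had its highest branch median in recombination. It too was chosen with earlier results of these data known and is no independent check. At 48 h 106 were measured, 17 were higher, 5 were lower and 2 were higher as a bound, with a median of 0.12, beside 9.94% higher and 10.1% lower among all named genes. With the 3 h control 17 of 105 were higher and 1 was lower, Rev3l, while Neil2, Aptx, Hltf and Shprh no longer reached 2-fold. Recombination genes made up 11 of the 17, out of 28 measured (39.3%, median 0.58), and none of them was lower. Eme1, a subunit of a nuclease that cuts joined chromatids, was at -4.78, -4.26, -4.25, -4.42 and -0.99, 3.43 above the 48 h control. In the Fanconi list 1 of 10 was higher, a share near the 9.94% of all named genes. It was Ube2t, the ubiquitin-conjugating enzyme for Fancd2 and Fanci, which differed by 2.11.

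The small counts that follow stand beside 9.94% higher and 10.1% lower among all named genes at 48 h. In the checkpoint list 2 of 14 were higher (14.3%). Clspn, the adaptor that brings Chek1 to Atr, was higher by a bound of 3.91. The measured genes were led by Topbp1, an activator of Atr, at 1.72. In base excision 2 of 17 were higher (11.8%) and 2 lower, near the shares of all named genes. The glycosylase gene Neil3 was higher by a bound of 4.20. Neil2 differed by -1.94, although its 48 h control was itself 1.39 above the 3 h control. Of the translesion genes 1 of 11 was higher and 3 were lower, or 1 and 1 against the 3 h control: Rev3l, the catalytic subunit of a translesion polymerase, differed by -2.08 (-2.01 against the 3 h control) and the ubiquitin ligase gene Rad18 by 1.46. Of the mismatch repair (5 measured), nucleotide excision (13), end joining (5) and direct reversal (3) genes, 0 reached 2-fold, with medians of 0.13, 0.10, -0.56 and -0.12; against the 3 h control 1 nucleotide excision gene was higher. All 5 end joining genes were below their control, from -0.79 for Polm to -0.09 for Nhej1. At 3 h of the high dose 1 gene of the wider list was called, Timeless, at -1.03. Its levels were 2.52, 1.57, 1.49, 1.76 and 2.13, so the 3 h control was the high array.

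**Figure D4:**
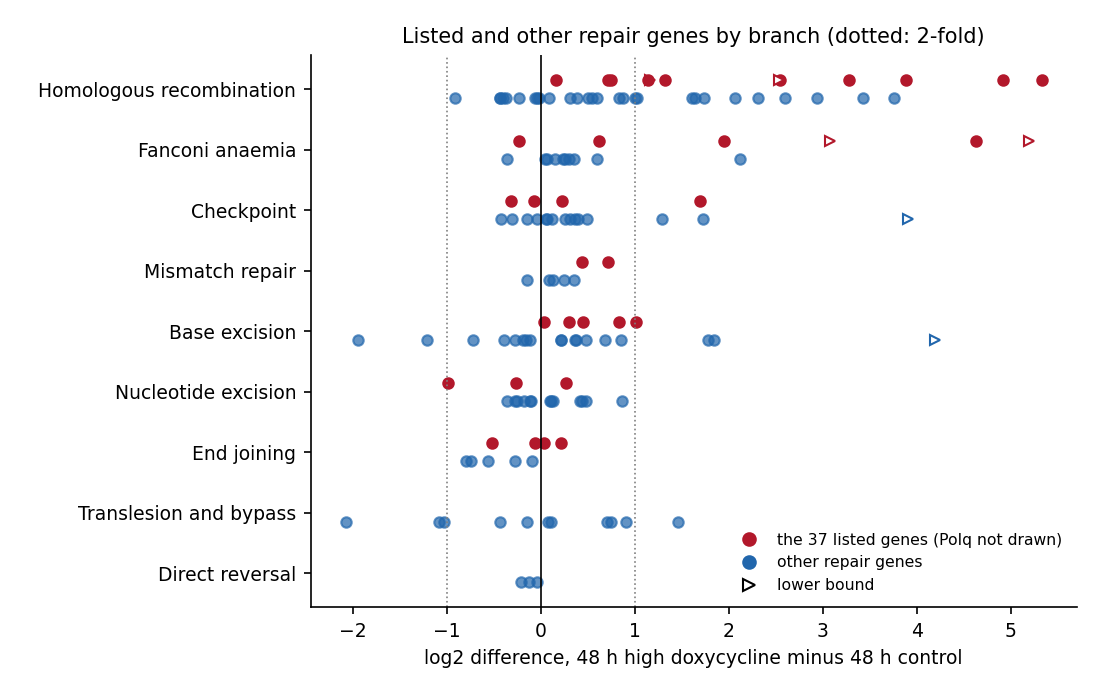
Log2 differences between the 48 h high-doxycycline and control arrays for the wider list of repair genes (blue) beside the members (red, Polq not drawn), by branch. Triangles are bounds as estimated in the text and dotted lines mark 2-fold. Among the measured genes of the wider list recombination reaches furthest to the right, with Eme1 at 3.43 among them, and the end joining genes lie around or below zero.

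On each array 30884 to 33427 of the 55681 probes passed background, and the 75th percentile of signal ran from 420 on the 48 h high-doxycycline array to 725 on the 3 h control. No spot was saturated, and of the members 32 to 37 were above background on each array. The number of arrays sets the limit of precision. Fos, which the study's title names, was at -2.22, -0.49, 2.18, -2.22 and 2.86, high on the arrays labelled high doxycycline; no probe here is known to read the fusion transcript itself.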

How the data were processed

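The deposited files hold linear spot intensities, per the file headers, read by Agilent Feature Extraction (10.7.3.1 per the submitters' processing notes); the authors' processed signal is background-subtracted, with no scaling between arrays. The series value table matched it within 0.001 (log2) for 99.99% of probes. Outlier spots (111 to 146 of 59305 per array) were left out. Signals were taken to log2, the array's 75th percentile was subtracted and replicate spots were averaged. A share of 0.5 of the spots marked well above background made a probe count as above it. Accessions were matched to the RefSeq gene table of GRCm38.p6, for names only; the brightest probe stood for a gene, and 8 members had several. A call is a 2-fold difference, above background on both arrays. Where every probe of a gene was below background on 1 array, the bound sets the other against the lowest signal above background there, or the probe's own if higher. Undetected probes can read above that lowest signal, so a bound is an estimate. On the 48 h high-doxycycline array the undetected Rmi2 was at -4.70, above that array's lowest detected signal of -5.28.

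Members and lists were chosen with earlier results of these data known. Members at 2-fold at 48 h and the smallest of each branch are named, with the leading 2 per branch of the wider list, of which 1 is not reported here. Alternatives were other scalings, normexp (limma 3.58.1, R 4.3.3, offset 50, on the median signal because the files hold no mean signal), the value table, no filter on dim probes, the mean of probes, 1.5-fold and 3-fold, and the other control. All 5 arrays lay on 1 slide and were scanned on 1 day.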

Additional observations from a re-analysis of the deposited data

How the results depend on the processing

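No result turned its direction past 2-fold under any alternative run. At 48 h the members called were 8 to 16 under the alternatives at the main threshold or 3-fold, and 17 (16 higher, 1 lower) at 1.5-fold. Over the alternatives the recombination median ran from 1.501 to 2.91 and the Fanconi median from 0.99 to 3.26, both highest with no filter on dim probes. The latter was 0.99 with normexp, under 2-fold, and stayed at 1.28 when the threshold was 3-fold, under that threshold. The 3 h high-dose count was 1 with normexp, 0 at 3-fold and 0 with the 48 h control, which gave 1 bound. The low-dose count was 1 with normexp, where Ung reached 1.11, and 3 at 1.5-fold. The control arrays differed in 1 member at 1.5-fold. Centring on array medians moved the all-gene split at the low dose from 111 higher and 82 lower to 89 and 101, and between the controls from 351 and 191 to 264 and 263, with an all-gene median of -0.12. Ung at 48 h was 1.64 against the 3 h control, and Apex1 0.76. The cause of these shifts was not tested. No paired analysis was possible because each group has 1 array. A slide or scan block was not run because all 5 arrays shared both. Dim probes, such as those of Chek1 and Brca1, limit what can be seen at low signal.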

Other observations

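The list of 13 p53 target genes, all measured, had 0 members higher and 1 lower at 48 h of high doxycycline. Among all named genes 9.94% were higher and 10.1% lower, so these small counts do not set the list apart. The list had a median difference of -0.38, with 5 of 13 above zero. The lower gene was Trp53inp1, which encodes a stress-induced nuclear protein, at 3.89, 4.15, 3.73, 3.56 and 1.67 in the order of arrays above. Cdkn1a, the cell cycle inhibitor, was at 2.90, 3.28, 3.33, 2.88 and 2.01, a difference of -0.88. Perp differed by 0.98, and by just over 2-fold against the 3 h control, and Plk2 by 0.83. The summed linear level of the list was highest on the 48 h high-doxycycline array, at 365, but Perp, at 7.98 there, made up most of that sum. The median level of the list was lowest on that array, at 2.31, beside 2.88 in the 48 h control. Csf1r, a macrophage receptor gene, was above background on all 5 arrays, at 2.55, 2.52, 2.65, 2.89 and 5.30, while C1qa was above background at 48 h of high doxycycline only. Some other macrophage markers already differed between the controls. Ctss was at -0.78, -0.87, -4.79, -4.67 and 1.43. Tyrobp, Lyz2 and C1qc were above background on the 3 h control and low-dose arrays and at 48 h of high doxycycline. They were below it on the remaining arrays. Of the 6 markers measured on both controls, 2 were at least 2-fold lower at 48 h and 0 higher. The difference was above zero for 2 of the 6, with Cd14 at 0.93.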
